A study of Homo sapiens with 9 samples.

Results

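The RNA exosome subunit genes EXOSC1 to EXOSC10 were examined across exon arrays of human cells. Members were the genes of these 10 symbols, taken from the probe sets that the platform annotation assigns to exactly 1 gene symbol, and all 10 had a gene level among 16748 genes that had one. Together they held 166 probe sets, of which 145 passed the filter on dim signal and 21 did not; 1 further probe set was annotated to a member and to another gene and was left out. The cells were Flip-In-293, HEK293 cells (from human embryonic kidney) engineered to accept a transgene at an integration site. All of them had been infected with a lentivirus that expressed a short hairpin RNA and had then been cultured for 10 days, so the controls carried virus too. The control hairpin was non-silencing, the second hairpin was directed against CPSF3 (the endonuclease that cuts pre-mRNA at its 3' end) and the third against RBFOX2 (an RNA-binding regulator of alternative exons), with 3 arrays in each group. One cell line and, as far as the labels say, 1 hairpin per target stand for each condition. Sample titles call the replicates biological and the series description calls them technical, and a p-value here reflects no more than how far these arrays varied, which may be technical variation.

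The RNA exosome degrades and trims RNA from the 3' end. Its core is a barrel: a ring of subunits related to RNase PH (EXOSC4 to EXOSC9) is topped by a cap of RNA-binding subunits (EXOSC1 to EXOSC3), and in human cells this barrel has no catalytic activity of its own. RNA is threaded through it to the exonuclease DIS3, while EXOSC10 is a second exonuclease that works in the nucleus and nucleolus, on ribosomal and small nucleolar RNA precursors among others. Helicases and adaptor complexes deliver the substrates, including the upstream transcripts and extended RNAs that arise when transcription ends at unusual places.

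A gene level is the median log2 signal over the kept probe sets of a gene on 1 array; differences between groups are log2 differences of these levels with their SE from limma's moderated fit over all genes, and a difference was called when its Benjamini-Hochberg adjusted p over all 16748 genes was under 0.05. No fall of the CPSF3 transcript itself was called. Against control it differed by -0.09 ± 0.16 on the arrays labelled CPSF3 knockdown (adjusted p = 0.752, limma), so that group is named by its label throughout. With this SE a modest fall could not be told from none. From the RBFOX2 knockdown arrays CPSF3 differed there by -0.34, and by -0.44 to -0.25 under 18 alternative settings, in none of which it was called. RBFOX2 differed by -0.58 ± 0.12 in the RBFOX2 knockdown arrays (adjusted p = 0.0617, limma). The median signal of the 9 arrays lay between 6.965 and 6.998. Of 9 markers of HEK293-derived cells, all 9 had a gene level, and the median over them lay between 9.70 and 10.3 on each array; the summed level was 88.4 to 89.6 on control arrays, 85.0 to 86.0 on arrays labelled CPSF3 knockdown and 86.3 to 87.0 on RBFOX2 knockdown arrays. In the arrays labelled CPSF3 knockdown 1 of these 9 rose and 4 fell, where 10.0% of all genes rose and 4.38% fell. In the RBFOX2 knockdown arrays 1 of the 9 fell, where 0.143% of all genes did. Between the hairpin groups 1 was called, lower in the arrays labelled CPSF3 knockdown, where 0.400% of all genes were called in either direction. The part of these markers in the results below was not tested. Markers of fibroblasts (6 of 6 measured), blood (4 of 5) and endothelium (5 of 5) had medians of 7.75 to 8.73 on single arrays, and none of them passed the test in any comparison. Single markers of these lists and of the HEK293-derived list overlapped. NEFM ran from 7.66 to 8.26 and PAX2 from 8.36 to 8.65, while PTPRC reached 9.36 and PECAM1 9.56. Other HEK293-derived markers lay above all of these, such as VIM at 10.2 to 11.5.

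In the arrays labelled CPSF3 knockdown, 3 of the 10 subunit genes rose against control and none fell: the cap subunits EXOSC2 and EXOSC3 and the ring subunit EXOSC4, by 1.39-fold to 1.52-fold. Over all genes 14.4% were called in this comparison, 10.0% higher and 4.38% lower. The mean was higher for 9 of the 10 members, beside 51.6% of all genes, with a median difference of 0.27 against 0.01 over all genes. In the RBFOX2 knockdown arrays none of the 10 passed the test, where 0.173% of all genes did (0.0299% higher and 0.143% lower). There 8 of the 10 means were higher, beside 56.0% of all genes, and the members' median difference was 0.07 against 0.03 over all genes. The lowest array of the one group lay above the highest of the other for 3 members (EXOSC2, EXOSC3 and EXOSC10) in the arrays labelled CPSF3 knockdown against control, beside 31.1% of all genes whose arrays did not overlap in either direction.

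**Figure D1:**
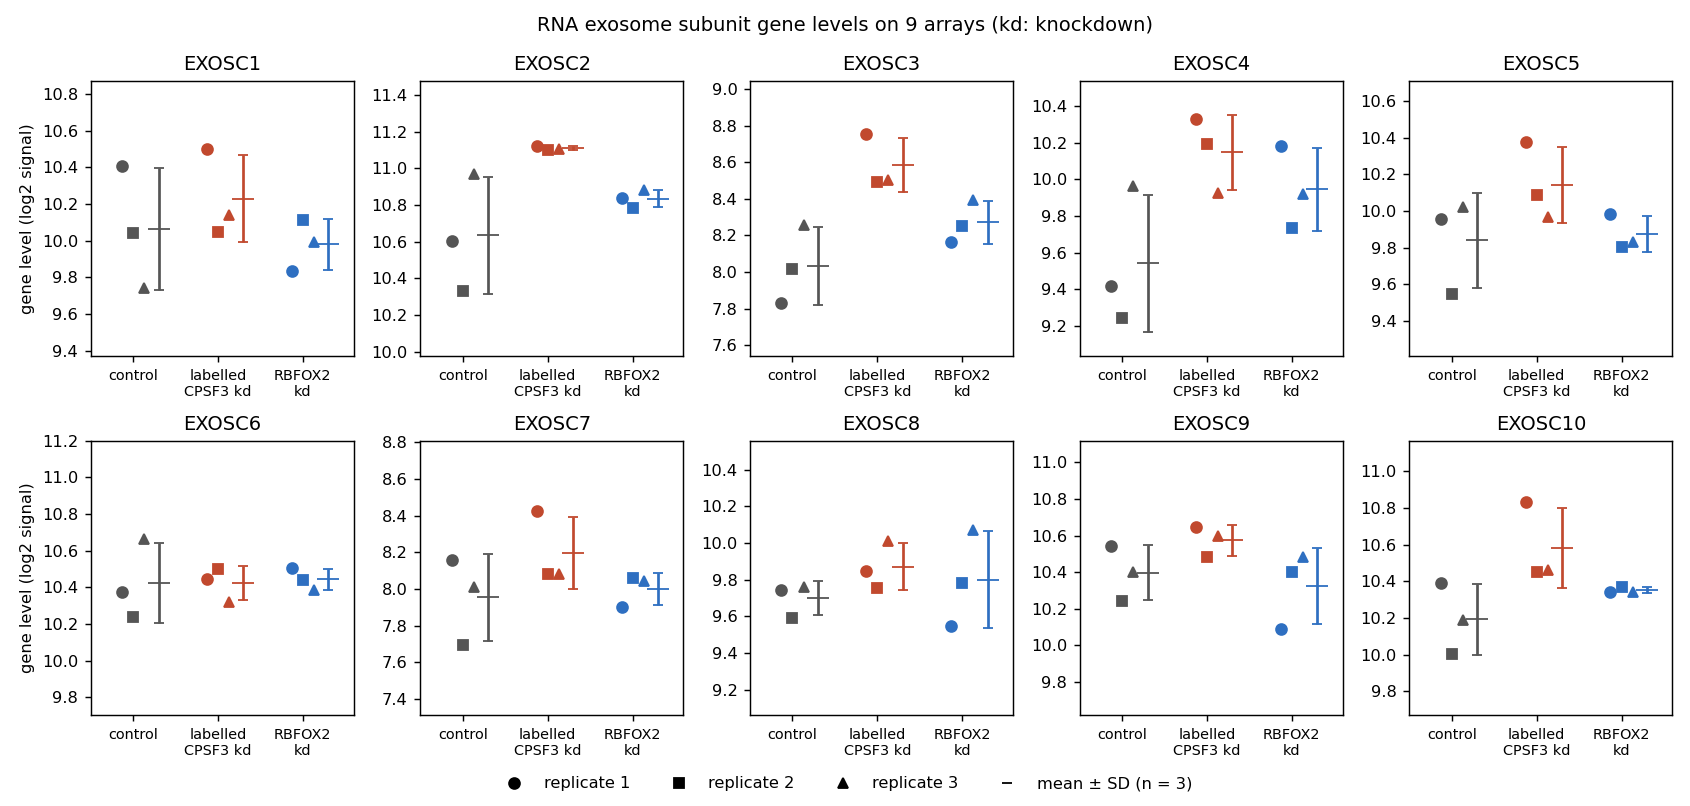
Gene level (log2 signal, vertical axis) of each exosome subunit on the 9 arrays, by group; each point is 1 array, its shape the replicate number, and the bar is the mean with its SD (n = 3). Every panel spans the same log2 range; EXOSC2, EXOSC3 and EXOSC10 have all 3 arrays labelled CPSF3 knockdown (kd) above all 3 control arrays.

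Among the cap subunits, EXOSC2, known in yeast as Rrp4, carries RNA-binding domains and contacts the entrance of the barrel. Its gene level was 10.60, 10.33 and 10.97 on the control arrays, 11.12, 11.10 and 11.11 on the arrays labelled CPSF3 knockdown and 10.84, 10.79 and 10.88 on the RBFOX2 knockdown arrays. The arrays labelled CPSF3 knockdown were nearly equal to each other and lay above every other array, while the control arrays were spread around the RBFOX2 knockdown arrays. The difference from control was 0.47 ± 0.14, a 1.39-fold rise (95% interval 0.17 to 0.78, adjusted p = 0.0385, limma). The call was close to the threshold: it was lost without control replicate 1 (adjusted p = 0.113) and without control replicate 2, where the difference was 0.32 (adjusted p = 0.162). It was also lost without any 1 of the arrays labelled CPSF3 knockdown (adjusted p = 0.0884 to 0.109) and without RBFOX2 knockdown replicate 2 (adjusted p = 0.0544), and was kept without control replicate 3 (0.64, adjusted p = 0.00202, limma). It did not pass with the stricter filter (0.36, adjusted p = 0.125), with no filter (adjusted p = 0.0645) or with only the compared groups (adjusted p = 0.0693, limma).

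EXOSC3, the human Rrp40 and the gene mutated in a form of pontocerebellar hypoplasia, gave 7.83, 8.02 and 8.25 on the control arrays, 8.75, 8.49 and 8.50 on the arrays labelled CPSF3 knockdown and 8.17, 8.25 and 8.40 on the RBFOX2 knockdown arrays. All 3 arrays labelled CPSF3 knockdown were again above the other 6. How many of all genes had these 3 arrays above the other 6 was not counted. The control levels were low, within the medians of 7.75 to 8.73 of markers of other cell types. The rise was 0.55 ± 0.13, or 1.46-fold (95% interval 0.26 to 0.83, adjusted p = 0.0152, limma), and was lost without control replicate 1 (0.45, adjusted p = 0.0779) and without replicate 1 of the arrays labelled CPSF3 knockdown (0.46, adjusted p = 0.0731, limma). With the stricter filter on dim probe sets it was 0.36 (adjusted p = 0.179) and with no filter 0.48 (adjusted p = 0.124, limma), and neither passed. EXOSC1, the human Csl4 and the third cap subunit, did not pass the test. It gave 10.41, 10.04 and 9.74 on the control arrays, 10.50, 10.05 and 10.14 on the arrays labelled CPSF3 knockdown and 9.83, 10.11 and 9.99 on the RBFOX2 knockdown arrays, and the groups overlapped. Its difference on the arrays labelled CPSF3 knockdown came to 0.16 ± 0.17, with a 95% interval from -0.19 to 0.52. This value was not stable: it was 0.34 without control replicate 1, 0.00 without control replicate 3, 0.03 without replicate 1 labelled CPSF3 knockdown and -0.14 with array weights. With the mean as gene level it was 0.26 and passed barely (adjusted p = 0.04998, limma).

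The promoters of EXOSC2 and EXOSC3 are shown because these are the cap genes that rose. Each sequence is the 250 bases before the annotated start, from RefSeq on GRCh38.p14 and read 5' to 3' along the gene's strand; the arrays' own build is hg18, and 8 of the 10 members had an entry. Capitals mark matches on either strand to CCAAT (reverse ATTGG) or GGGCGG (reverse CCGCCC), the letters of the CCAAT box and the GC box. EXOSC2 lies at chr9:130693510-130693759 on the plus strand and EXOSC3 at chr9:37785093-37785342 on the minus strand.
EXOSC2: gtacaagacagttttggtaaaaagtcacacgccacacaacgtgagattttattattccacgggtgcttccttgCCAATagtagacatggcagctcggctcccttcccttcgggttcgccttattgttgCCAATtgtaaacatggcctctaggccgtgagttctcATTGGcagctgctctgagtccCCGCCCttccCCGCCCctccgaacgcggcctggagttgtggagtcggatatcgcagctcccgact
EXOSC3: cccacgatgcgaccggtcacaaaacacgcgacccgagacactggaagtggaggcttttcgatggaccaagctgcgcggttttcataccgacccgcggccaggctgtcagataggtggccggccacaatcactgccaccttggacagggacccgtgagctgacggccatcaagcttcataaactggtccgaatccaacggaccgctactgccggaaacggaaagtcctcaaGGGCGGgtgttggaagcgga
EXOSC2 held 3 matches to CCAAT and 2 to GGGCGG, and EXOSC3 held 1 match to GGGCGG and none to CCAAT. Of 35116 promoter windows of 250 bases, 32.0% held CCAAT and 42.6% held GGGCGG. The letters of an ETS site (CGGAAG, in 16.5% of all windows) and of an E-box (CACGTG, in 6.35%) were found in neither window; a second EXOSC3 start in the table had the ETS letters at 2 places. Among the other members with an entry, EXOSC10 held 2 matches to the letters GCATGCG of NRF1 sites, which 3.39% of all windows held and the windows of EXOSC2 and EXOSC3 did not. Matches to these letters on opposite strands can overlap, so the 2 may be 1 site. These matches describe letters in a window and were not tested against the changes.

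Of the 6 ring subunits 1 rose. EXOSC4, the human Rrp41, gave 9.42, 9.24 and 9.96 on the control arrays, 10.33, 10.19 and 9.92 on the arrays labelled CPSF3 knockdown and 10.18, 9.73 and 9.92 on the RBFOX2 knockdown arrays. Control replicate 3 lay above the lowest array labelled CPSF3 knockdown, so these groups overlapped. The rise was 0.61 ± 0.18, or 1.52-fold (95% interval 0.22 to 0.99, adjusted p = 0.0384, limma). It did not pass without control replicate 1 (0.54, adjusted p = 0.129), control replicate 2 (0.46, adjusted p = 0.151), or replicate 1 (0.51, adjusted p = 0.152) or replicate 2 (0.58, adjusted p = 0.104) of the arrays labelled CPSF3 knockdown. It did not pass with no filter (adjusted p = 0.0652) or with only the compared groups (adjusted p = 0.0555, limma) either. EXOSC4 in the RBFOX2 knockdown arrays differed by 0.40 ± 0.18, with an adjusted p of 0.339 from limma; without control replicate 3 that difference was 0.61 and passed the test (adjusted p = 0.0237, limma).

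EXOSC6 (Mtr3) was the member with the smallest difference. It gave 10.38, 10.24 and 10.67 on the control arrays, 10.45, 10.50 and 10.32 on the arrays labelled CPSF3 knockdown and 10.50, 10.44 and 10.39 on the RBFOX2 knockdown arrays. Both hairpin groups lay inside the range of the controls. The 95% interval of its difference in the arrays labelled CPSF3 knockdown ran from -0.27 to 0.26; with the mean over probe sets as gene level the difference was 0.22 (adjusted p = 0.0982, limma). The other ring subunits, EXOSC5 (Rrp46), EXOSC7 (Rrp42), EXOSC8 (Rrp43, also linked to pontocerebellar hypoplasia) and EXOSC9 (Rrp45, first described as an autoantigen in scleroderma overlap syndromes), had mean differences of 0.30 ± 0.15, 0.24 ± 0.14, 0.17 ± 0.14 and 0.18 ± 0.13. None of these passed (adjusted p = 0.197 to 0.468, limma), and in each the arrays of both groups overlapped. Without control replicate 2 the differences of EXOSC5, EXOSC7 and EXOSC9 were 0.15, 0.11 and 0.10, and without replicate 1 labelled CPSF3 knockdown those of EXOSC5 and EXOSC7 were 0.19 and 0.13; EXOSC8 was at 0.10 without replicate 3 of that group. EXOSC5 ranged from 9.55 to 10.02 on control arrays and from 9.97 to 10.37 on arrays labelled CPSF3 knockdown. EXOSC7 ranged from 7.69 to 8.16 and from 8.08 to 8.42 in the same groups. EXOSC8 ranged from 9.59 to 9.76 and from 9.76 to 10.01, and EXOSC9 from 10.24 to 10.54 and from 10.48 to 10.64. These 4 genes differed from control by -0.07 to 0.10 in the RBFOX2 knockdown arrays.

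EXOSC10, the nuclear exonuclease (Rrp6 in yeast), gave 10.39, 10.00 and 10.19 on the control arrays, 10.83, 10.45 and 10.46 on the arrays labelled CPSF3 knockdown and 10.34, 10.37 and 10.34 on the RBFOX2 knockdown arrays. All 3 arrays labelled CPSF3 knockdown lay above the other 6, for which no share over all genes was counted. The difference from control was 0.39 ± 0.13 (95% interval 0.10 to 0.68), which did not pass the test (adjusted p = 0.0700, limma); with the stricter filter on dim probe sets it was 0.60 and passed (adjusted p = 0.00597, limma). It was 0.23 with the mean as gene level, 0.19 with array weights and 0.26 without replicate 1 labelled CPSF3 knockdown, and did not pass in these.

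**Figure D2:**
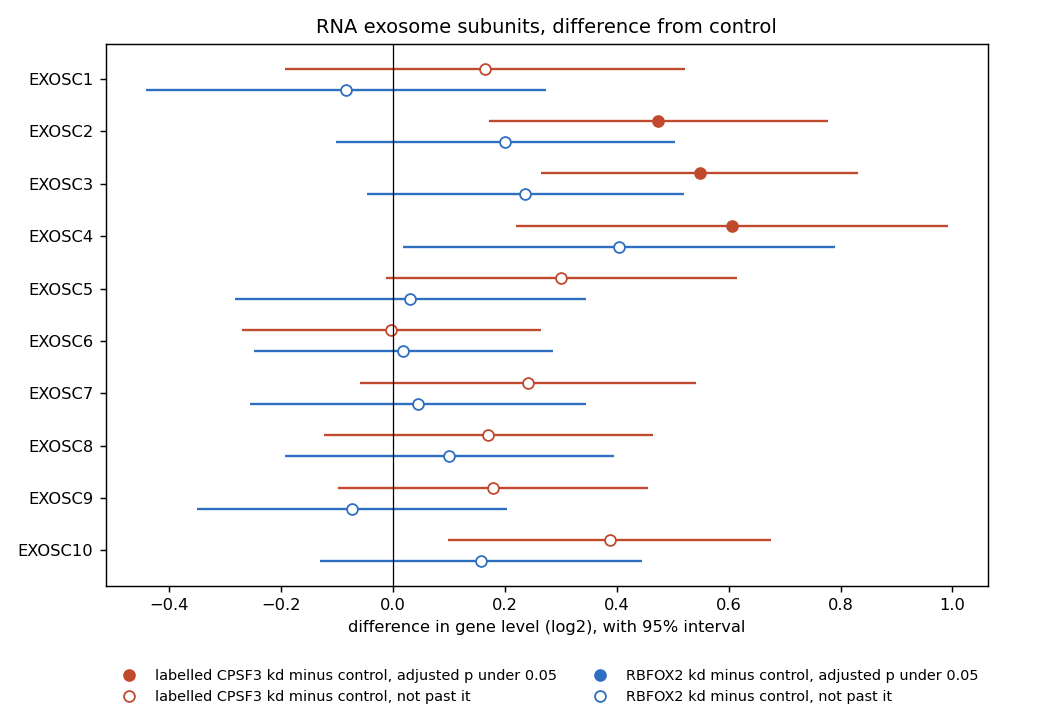
Difference in gene level from control (log2, horizontal axis) for each subunit, in the arrays labelled CPSF3 knockdown and in the RBFOX2 knockdown arrays (3 arrays per group, the same 3 controls), with the 95% interval from the fit; filled points passed the adjusted p of 0.05. The 3 filled points are EXOSC2, EXOSC3 and EXOSC4 at 0.47, 0.55 and 0.61.

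The arrays of a group did not carry the members equally. Measured from the mean of the 3 controls, the median over the 10 members was 0.48, 0.19 and 0.23 on replicates 1, 2 and 3 labelled CPSF3 knockdown, with 10, 9 and 9 members above the control mean. On the control arrays it was 0.08, -0.19 and 0.12, and control replicate 2 had none of the 10 members above the control mean. Over all genes the same array had 35.3% of genes above it and a median of -0.06. The RBFOX2 knockdown arrays gave 0.10, 0.09 and 0.12. Both comparisons with control share these 3 control arrays. Set directly against the RBFOX2 knockdown arrays, the arrays labelled CPSF3 knockdown had 9 of 10 member means higher, beside 50.1% of all genes. The median was 0.24 and none passed the test, where 0.400% of all genes did. EXOSC3 had the smallest p there, with a difference of 0.31 ± 0.13 (adjusted p = 0.328, limma).

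The single probe sets show how alike the signals annotated to a gene moved, without regard to their position along it. Of the 145 kept member probe sets, 116 (80.0%) had a higher mean in the arrays labelled CPSF3 knockdown than in control, where 47.8% of all kept probe sets did. Shares of all are over 692116 kept probe sets, of which 266506 were assigned to exactly 1 gene, as every member probe set was. Shares over those alone were not computed. All 14 probe sets of EXOSC2 and all 6 of EXOSC3 were higher, by 0.07 to 0.63 and by 0.29 to 0.64, and 5 of 6 of EXOSC4 were, from -0.15 to 0.97. Adjusted over 692116 probe sets, 4 of the 145 passed, 3 higher and 1 lower, beside 1.60% of all probe sets. In the RBFOX2 knockdown arrays 98 member probe sets (67.6%) had a higher mean than in control, beside 51.5% of all. None passed there (0.000433% of all probe sets did), and 15 (10.3%) had an unadjusted p under 0.05 beside 9.11% of all (limma). Between the hairpin groups none passed either (0% of all), and 17 member probe sets (11.7%) had an unadjusted p under 0.05 beside 5.77% of all (limma).

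EXOSC6, whose median gene level differed by -0.00, held 1 of the called probe sets. Probe set ps3697006 gave log2 signals of 8.62, 8.56 and 9.25 on the control arrays, 10.36, 9.79 and 9.90 on the arrays labelled CPSF3 knockdown and 9.60, 9.21 and 9.51 on the RBFOX2 knockdown arrays. Its signal rose by 1.21 (adjusted p = 0.0281, limma). The neighbouring number ps3697004, named after its values were seen, differed by 1.10 (adjusted p = 0.0665, limma), and the other 10 probe sets differed by -0.15 to 0.34. Of the 12 probe sets, 2 are numbered far from the rest, and they differed by 0.08 and 0.27.

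EXOSC10 held the other 3 called probe sets, and they went both ways. Probe set ps2396520 gave 8.58, 9.53 and 9.63 on the control arrays and 10.83, 10.45 and 10.46 on the arrays labelled CPSF3 knockdown, a rise in signal of 1.34 (adjusted p = 0.0306, limma). Probe set ps2396512 gave 10.27, 10.00 and 10.39 against 11.34, 10.99 and 10.99, a rise of 0.89 (adjusted p = 0.0414, limma). Probe set ps2396506 went the other way, from 8.86, 8.88 and 9.55 to 7.49, 8.24 and 7.82, and fell by 1.24 (adjusted p = 0.0394, limma). In each of the 3 the groups did not overlap. They were picked by a test on these same arrays, so this adds no support, and the share of all probe sets without overlap was not counted. All 4 called member probe sets missed the threshold without control replicate 1, without control replicate 2 and without any 1 of the arrays labelled CPSF3 knockdown (adjusted p = 0.0732 to 0.160, limma); without RBFOX2 knockdown replicate 2 the count was 2.

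Across EXOSC10 as a whole 30 of 39 probe sets had a higher mean in the arrays labelled CPSF3 knockdown and 9 a lower one. All 9 lay among the 19 dimmer probe sets of the gene, whose median difference was 0.07; the 20 brighter ones were all higher, with a median of 0.39. Over 15035 genes split in the same way the medians were -0.01 for brighter and 0.03 for dimmer probe sets, and the brighter ones had the higher median in 43.3% of genes. The RBFOX2 knockdown arrays showed the same split of EXOSC10 against control. All 12 lower probe sets there were dimmer ones, and the medians were 0.13 for brighter and -0.06 for dimmer. In the arrays labelled CPSF3 knockdown, the 4 lower EXOSC10 probe sets with an unadjusted p under 0.05 carry the close numbers ps2396502, ps2396503, ps2396505 and ps2396506; between them ps2396504, a bright probe set, differed by 0.57 (adjusted p = 0.162, limma). These numbers, other than the last of the lower ones, were picked out after their values were seen, and the position of probe sets along the gene was not used here.

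**Figure D3:**
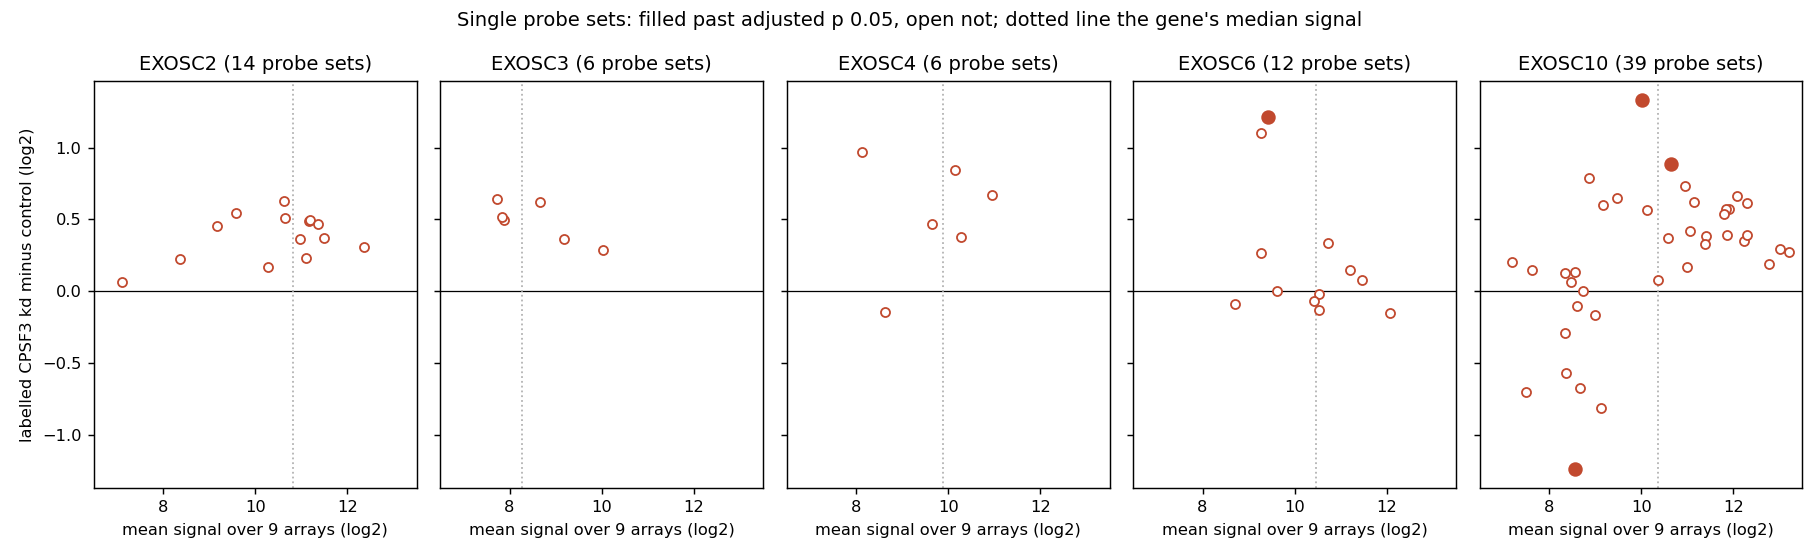
Difference between the arrays labelled CPSF3 knockdown (kd) and control (log2, vertical axis) against mean signal over the 9 arrays (log2, horizontal axis) for single kept probe sets of 5 subunit genes; filled points passed the adjusted p of 0.05, and the dotted line is the gene's median signal. In EXOSC10 the 9 probe sets below 0 lie left of that line, and in EXOSC6 a pair of probe sets stands above the rest at 1.21 and 1.10.

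An exon signal is what remains of a probe set's log2 signal after subtracting its gene's level on that array, so it measures a shift relative to the rest of the gene. None of the 145 member probe sets passed this test in the arrays labelled CPSF3 knockdown, as none of all 257548 did (0%). At an unadjusted p under 0.05 there were 27 member probe sets (18.6%) beside 12.7% of all, by limma. EXOSC10 held 13 of the 27, 4 shifted up and 9 down. Its smallest adjusted p was at ps2396502, with an exon signal lower by 1.20 in the arrays labelled CPSF3 knockdown (adjusted p = 0.0781, limma), and EXOSC6 had ps3697006 with a shift of 1.21 (adjusted p = 0.0675, limma). The call depends on the setting: ps3697006 passed with the mean as gene level, with array weights, under a variance trend and without control replicate 3 (adjusted p = 0.0231 in the last), and ps2396502 passed in the last 3 of these settings (adjusted p = 0.0285, 0.0465 and 0.0193, limma). None passed in the RBFOX2 knockdown arrays or between the hairpin groups either (0% of all). At an unadjusted p under 0.05 there were 12 member probe sets (8.28%) beside 7.88% of all in the first and 5 (3.45%) beside 4.24% in the second, shares near the background (limma).

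The partners of the exosome were taken from a list of 41 genes of general knowledge, all 41 of which had a gene level. In the arrays labelled CPSF3 knockdown 8 rose and 1 fell, where 10.0% of all genes rose and 4.38% fell. The median difference was 0.25 against 0.01 over all genes, and 31 of 41 means were higher, as were 51.6% of all. MPHOSPH6 (MPP6), which binds the nuclear exosome and helps to dock its helicase, gave 7.63, 6.98 and 8.07 on the control arrays and 8.61, 8.84 and 8.69 on the arrays labelled CPSF3 knockdown. Its level rose by 1.16 ± 0.24 (adjusted p = 0.00803, limma), and by 0.49 and 0.76 with the stricter filter and with the mean as gene level. Its control levels were low: 6.98 is close to the filter cut of 6.97 on dim signal. The other control levels lay below or within the medians of 7.75 to 8.73 of markers of other cell types. NCBP1, the large subunit of the nuclear cap-binding complex, gave 8.78, 8.53 and 9.30 against 9.89, 9.76 and 9.92 and rose by 0.98 ± 0.16 (adjusted p = 0.00307, limma). MTREX (MTR4), the helicase that unwinds RNA for the nuclear exosome, gave 9.62, 9.55 and 9.74 against 10.59, 10.35 and 10.40 and rose by 0.81 ± 0.14 (adjusted p = 0.00423, limma). In these 3 genes the groups did not overlap, as in 17 of the 41 partners and 31.1% of all genes. Each of the 3 was called under all 18 alternative settings.

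Of the exonucleases that join the core, the cytoplasmic DIS3L rose by 0.73 ± 0.18 (adjusted p = 0.0158, limma). It gave 8.54, 8.27 and 9.05 on the control arrays and 9.47, 9.28 and 9.30 on the arrays labelled CPSF3 knockdown, and missed the threshold without control replicate 1 (adjusted p = 0.0611), control replicate 2 (adjusted p = 0.0655) or replicate 1 labelled CPSF3 knockdown (adjusted p = 0.0724, limma). DIS3, the main nuclear one, gave 9.28, 9.27 and 8.89 against 9.61, 9.59 and 9.44, without overlap, as in 31.1% of all genes. Its difference of 0.40 ± 0.16 did not pass (adjusted p = 0.107, limma). DIS3L2, which degrades uridylated RNA without the exosome, differed by -0.01 ± 0.11, and SKIC2, the helicase of the cytoplasmic Ski complex, by 0.09 ± 0.11 (adjusted p = 0.980 and 0.654, limma).

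The other calls were of smaller size. LSM1 and DDX6, parts of the machinery that removes the cap and starts decay from the 5' end, rose by 0.65 ± 0.16 and 0.61 ± 0.14, and DCP1B, a decapping cofactor, rose by 0.58 ± 0.17 (adjusted p = 0.0150, 0.0115 and 0.0339, limma). NVL, a nucleolar ATPase that associates with MTREX, rose by 0.46 ± 0.13 (adjusted p = 0.0341, limma). PABPN1, the nuclear poly(A)-binding protein of the PAXT adaptor, fell by 0.48 on the log2 scale (SE 0.14, adjusted p = 0.0297, limma), from 10.87, 10.96 and 10.62 on the control arrays to 10.29, 10.41 and 10.30; with the mean as gene level the difference was -0.10 and did not pass (adjusted p = 0.542, limma). Without replicate 1 labelled CPSF3 knockdown none of these 5 passed, with adjusted p from 0.0590 for DDX6 to 0.147 for NVL by limma, and without control replicate 2 none did either (0.0502 for DDX6 to 0.132 for DCP1B). Without control replicate 1 LSM1, DCP1B and PABPN1 did not pass (adjusted p = 0.0660, 0.0889 and 0.0994, limma), and without control replicate 3 NVL did not (adjusted p = 0.0533, limma). Without replicate 2 labelled CPSF3 knockdown DCP1B, NVL and PABPN1 did not pass (adjusted p = 0.0716, 0.0604 and 0.0600), and without replicate 3 DCP1B and PABPN1 did not (adjusted p = 0.0639 and 0.0808, limma). By role, beside 14.4% of all genes called in either direction, calls were 1 of 3 exonucleases, 1 of 2 nuclear binders, 1 of 4 TRAMP and helicase genes, none of 2 NEXT genes, 1 of 3 PAXT genes, 1 of 4 cap-linked genes, 1 of 3 nucleolar genes, none of 4 Ski complex genes and 3 of 16 genes of decay from the opposite end.

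In the RBFOX2 knockdown arrays none of the 41 partners passed the test, where 0.173% of all genes did. An unadjusted p under 0.05 was found for 5 of the 41, and for 13.6% of all genes (limma). Their median was -0.02; NCBP1 differed by 0.59 ± 0.16 there, MTREX by 0.29 ± 0.14 and PABPN1 by -0.54 ± 0.14. Between the hairpin groups none passed, where 0.400% of all genes did. Here 13 of the 41 had an unadjusted p under 0.05, a larger share than the 13.3% of all genes (limma). In this comparison 39 of 41 means were higher in the arrays labelled CPSF3 knockdown, as were 50.1% of all means.

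**Figure D4:**
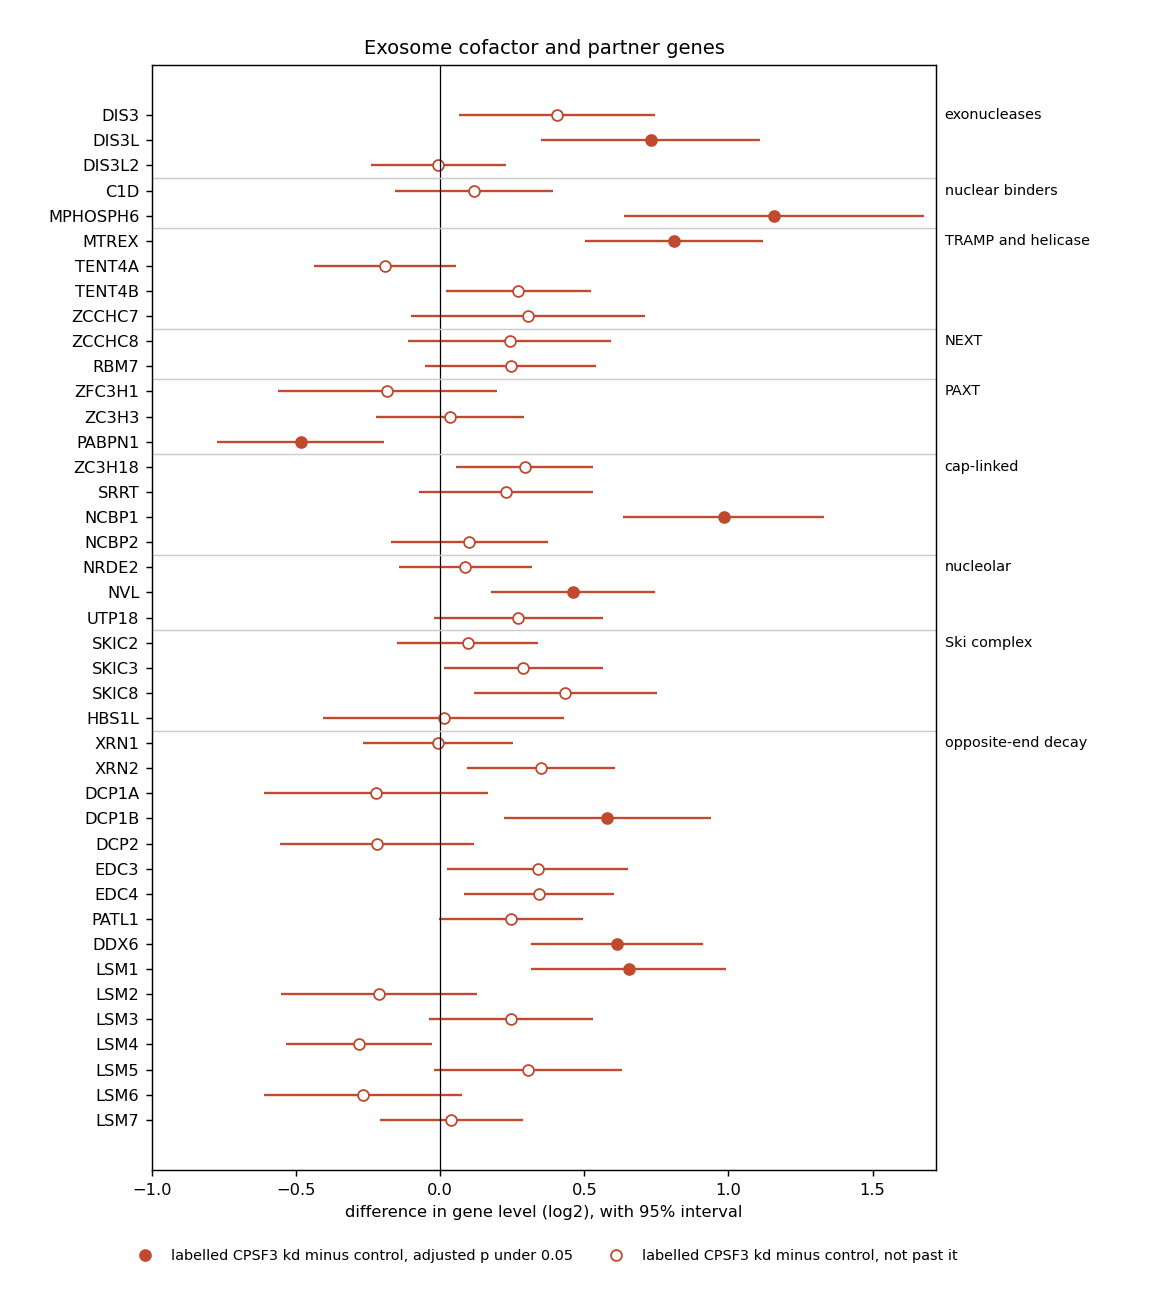
Difference in gene level between the arrays labelled CPSF3 knockdown (kd) and control (log2, horizontal axis, 3 arrays per group) for the 41 partner genes, grouped by role at the right, with 95% intervals from the fit; filled points passed the adjusted p of 0.05. The 8 filled points right of 0 reach from NVL at 0.46 to MPHOSPH6 at 1.16, and PABPN1 is the filled point left of 0.

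For each called member, the genes with the most similar pattern were found by the root mean square distance between profiles over the 9 arrays, each centred on its own mean. The nearest to EXOSC2 were NUP98 (0.0484), MEN1 (0.0522) and MBTD1 (0.0529), where the median gene was at 0.282. The nearest to EXOSC3 were NDUFA9 (0.0629), HDDC3 (0.0693) and ZNF101 (0.0702), with the median gene at 0.296. The nearest to EXOSC4 were HIRA (0.0479), INPP5A (0.0552) and PRKCH (0.0713), with the median gene at 0.356. These distances describe 9 arrays and carry no test.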

How the data were processed

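Total RNA was measured on Affymetrix Human Exon 1.0 ST arrays. Values deposited by the authors are log2 signals, 1 per probe set and array; per the submitters' processing notes they come from RMA in Affymetrix Power Tools with build hg18, with no versions named. RMA makes the arrays' distributions alike, which hides a shift common to most genes, and dim probe sets have compressed changes.

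Probe sets with a mean at or above the median of all (6.97) were kept, 692116 of 1384231. Gene levels needed at least 3 kept probe sets and exon signals at least 5. Each was fitted with limma 3.58.1 in R 4.3.3, all 3 groups in 1 model with no block; tests were 2-sided and adjusted over all features; scripts were tested on simulated data. With 3 arrays against 3, the smallest p of an exact permutation test is 0.1. Members and lists were chosen with earlier results of these data known. Named were all members and the targets, probe sets that passed (at most 4 per member), called partner genes (at most the 6 highest and 6 lowest) with DIS3, DIS3L, DIS3L2, MTREX and SKIC2, and the 3 nearest genes of each called member. Alternatives were 2 other filters, the mean as gene level, quantile normalisation, array centring, a variance trend, array weights, a replicate block, the compared groups alone and leaving out each array.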

Additional observations from a re-analysis of the deposited data

How the results depend on the processing

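No direction of a called subunit gene, partner gene or member probe set turned under any setting that was run. Signs of values not called did turn. In the arrays labelled CPSF3 knockdown against control this held for EXOSC1 and CPSF3 in 1 setting each, EXOSC6 in 4 and DIS3L2 in 5. Between the hairpin groups it held for EXOSC6 in 4, EXOSC7 in 1 and EXOSC8 in 2. In the RBFOX2 knockdown arrays several subunit genes turned, EXOSC5 in 5 settings. Counts of higher means were not repeated under other settings. In the arrays labelled CPSF3 knockdown against control, the count of called subunit genes (3) was 0 with no filter, 1 with only the compared groups and 4 with the mean as gene level, and 0 to 3 when single arrays were left out. EXOSC2 was called in 9, EXOSC3 in 14 and EXOSC4 in 12 of 18 settings. The 4 called probe sets became 0 with no filter, 11 with the stricter filter, 11 with a variance trend and 13 with array weights, and 0 to 15 when single arrays were left out; the 15 came without control replicate 3. The 0 called exon signals became 1 with the mean as gene level, 2 with a variance trend and 3 with array weights, and 0 to 5 without single arrays. The 9 called partner genes became 17 with array weights and 3 to 10 without single arrays. In the RBFOX2 knockdown arrays the 0 called partners became 4 with array weights and 0 to 7 without single arrays, and subunit genes and probe sets 0 to 1 each, the highest counts without control replicate 3. Between the hairpin groups the partners became 2 with array weights and 0 to 1 without single arrays. The cause was not tested. Same-numbered arrays did not all deviate together (correlations of -0.14 to 0.33, and -0.45 to 0.35 for arrays of different number). Whether arrays of the same number share more than that number was not tested. With the replicate block 3 subunit genes, 3 of their probe sets and 9 partners were called, and ps2396506 was not (adjusted p = 0.0543, limma). The number of arrays, 3 per group, limits the precision.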
